A study of Mus musculus with 38 samples.

Results

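The genes described here are 43 genes of the proximal tubule of the mouse kidney, of the 21705 genes in the deposited expression table. They are transporters, endocytic receptors, brush border peptidases and enzymes that were chosen by symbol for their known place in this segment, and every symbol was found in the table. The rule used no expression value, although the list was drawn up with earlier results of these data known. They were followed in wild-type kidney, in kidney tumours of 3 genotypes and in a tumour cell line of each genotype.

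The proximal tubule reclaims most of the sodium, bicarbonate, glucose, amino acids, phosphate and small proteins that the glomerulus filters. Its cells carry a brush border of microvilli dense with transporters and peptidases, secrete organic anions and cations, and make glucose from lactate and amino acids. Several of these genes are known to be driven by the hepatocyte nuclear factor HNF4, and several differ between male and female mice.

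RNA was measured by mRNA sequencing in 38 libraries. The 5 kidney libraries came from animals given as Wild Type and treated with vehicle. The tumours were labelled "MYC+" (MYC tumours, 3 libraries from mice 2917 and 2983, of which 2 are from mouse 2983), "Vhl-/-; MYC +" (VM tumours, 3 mice) and "Vhl-/-; MYC +; Ink-/-/Arf-/-" (VIM tumours, 3 mice). The cells were 1 line for each of these genotypes, with 4 libraries kept on doxycycline (Dox) and 4 after its withdrawal, 24 in all. In the mice, a Ksp-cadherin promoter drove the Dox-dependent activator of a MYC transgene (Tet-O-MYC) and a tamoxifen-dependent Cre that deletes floxed Vhl in renal tubule cells, while the Ink4a/Arf loss was in the germline. The MYC transgene, which Dox is meant to turn on, was thus carried by every tumour and every line, and no library of a tumour without it was analysed here. The kidneys carried neither transgene induction nor Dox, so the effect of Dox and that of the tumour cannot be told apart between them. The cells of a line are cultures of the same cells, so tests within or between lines cover the spread between cultures and not between animals.

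Every library is labelled kidney, and whether it was a tumour or cells was read from its title. Values are in units of the table, in which the upper quartile of a library is close to 1000. They are not per transcript length, so levels are not compared between genes. Kidneys held 11.8 to 15.5 M estimated reads, tumours 8.22 to 15.4 M and cells 12.4 to 36.6 M, and 3 reads, taken as the floor, were worth 1.16 to 5.65 units. Vhl lay at 612 to 772 units in the kidneys, at 468 to 560 in the MYC tumours, at 40.2 to 79.9 in the VM tumours, at 219 to 312 in the VIM tumours and at 8.32 to 38.8 in the VM and VIM cells. Cdkn2a, the Ink4a/Arf gene, lay at 24.9 to 95.5 units in the VIM tumours and cells. It was 103-fold lower in VIM than in MYC cells, both with Dox, but the VIM tumours were above the kidney mean for it. The median of Vhl, Myc and Cdkn2a in these tumours was 508 to 712% of the kidney mean, with Vhl under that mean. The Myc row of the table lay at 40.7 to 119 units in the kidneys, 208 to 801 in the tumours, 338 to 699 in the cells with Dox and 1308 to 1868 in those without it. Whether reads of the transgene enter this row is not given in the sources used here, so it does not check the state of the transgene. Kidney 5 differed from the other kidneys in Xist, which was at 20506 units against 0 to 1204, and in Ddx3y of the Y chromosome, which was at 69.6 units against at least 1303. The 17 markers of the loop of Henle, distal tubule and collecting duct summed to 86085 to 182416 units in kidney and to 99.9 to 8427 in tumours, with the highest sums in MYC tumour 2, at 3438 units, and VIM tumour 2, at 8427 units.

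The promoters of the members whose results follow were read from RefSeq (GRCm38.p6), which gave a start site for 39 of the 43 members; Slc5a12, Slc5a2, Slc13a1 and Slc6a18 had none there. Each is 300 bases long, from 250 before to 50 after the start, on the strand of the gene. Slc3a1 and Pdzk1 are shown because they hold a consensus string of HNF4 (CAAAGTCCA), and Kap and Dpp4 because they had the largest fall in tumours and the only rise. Capitals mark the HNF4 string in Slc3a1 (chr17:85028097-85028396, + strand) and in Pdzk1 (chr3:96829815-96830114, + strand), and the string TATAAA, which occurs in TATA boxes, in Kap (chr6:133853618-133853917, - strand) and in Dpp4 (chr2:62412182-62412481, - strand). Whether a match is a working TATA box was not tested. Slc3a1 also holds TATAAA, which is not marked there. Pdzk1 has 2 promoters, and the one shown was picked for its HNF4 string.
Slc3a1: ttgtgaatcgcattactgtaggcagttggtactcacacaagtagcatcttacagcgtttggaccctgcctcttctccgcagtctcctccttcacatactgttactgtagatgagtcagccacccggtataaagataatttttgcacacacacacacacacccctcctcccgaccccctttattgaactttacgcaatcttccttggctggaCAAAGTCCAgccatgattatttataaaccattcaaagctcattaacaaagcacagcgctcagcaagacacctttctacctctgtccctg
Pdzk1: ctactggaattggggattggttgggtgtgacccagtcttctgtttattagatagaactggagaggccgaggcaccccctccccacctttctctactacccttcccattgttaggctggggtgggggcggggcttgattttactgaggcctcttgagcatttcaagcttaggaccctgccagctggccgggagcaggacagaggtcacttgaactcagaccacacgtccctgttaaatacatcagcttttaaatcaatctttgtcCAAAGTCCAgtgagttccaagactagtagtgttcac
Kap: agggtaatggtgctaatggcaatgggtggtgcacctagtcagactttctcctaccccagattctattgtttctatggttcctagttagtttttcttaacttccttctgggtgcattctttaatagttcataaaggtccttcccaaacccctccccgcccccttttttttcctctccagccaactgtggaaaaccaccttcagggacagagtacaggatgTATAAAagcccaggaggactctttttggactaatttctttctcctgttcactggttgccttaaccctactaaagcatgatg
Dpp4: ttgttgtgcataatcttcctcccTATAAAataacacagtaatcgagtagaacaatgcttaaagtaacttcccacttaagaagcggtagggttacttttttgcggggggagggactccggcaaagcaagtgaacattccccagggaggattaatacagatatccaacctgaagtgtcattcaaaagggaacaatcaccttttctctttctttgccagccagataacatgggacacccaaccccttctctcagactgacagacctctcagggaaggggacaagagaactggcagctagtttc

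Relative to the start site, these matches begin at position -39 in Slc3a1, 14 in Pdzk1, -31 in Kap and -227 in Dpp4. Each string was searched on both strands and by itself, so matches of different strings may overlap. The HNF4 string was in 2 of 39 members and in 0.555% of the 27025 genes with a promoter. TATAAA was in 10 members and 15.7% of genes. The E-box CACGTG, the string that MYC with its partner MAX is known to bind, was in 7 members (Amn, Slc13a3, Slc5a1, Slc9a3, Ggt1, Ass1 and Akr1c21) and in 8.09% of genes. These matches describe letters in a window and were not set against the changes below.

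In normal kidney the 43 genes were a large part of the RNA. They took 5.62 to 10.9% of all estimated reads of a kidney library, or 4.38 to 5.68% without Kap, and every member was above the floor in every kidney. In the tumours they took 0.236 to 0.552% of reads. In the cells they took 0.0510 to 0.120%. Bulk RNA cannot separate fewer proximal tubule cells from less RNA in each such cell, and this holds for every comparison between kidney and tumour.

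**Figure D1:**
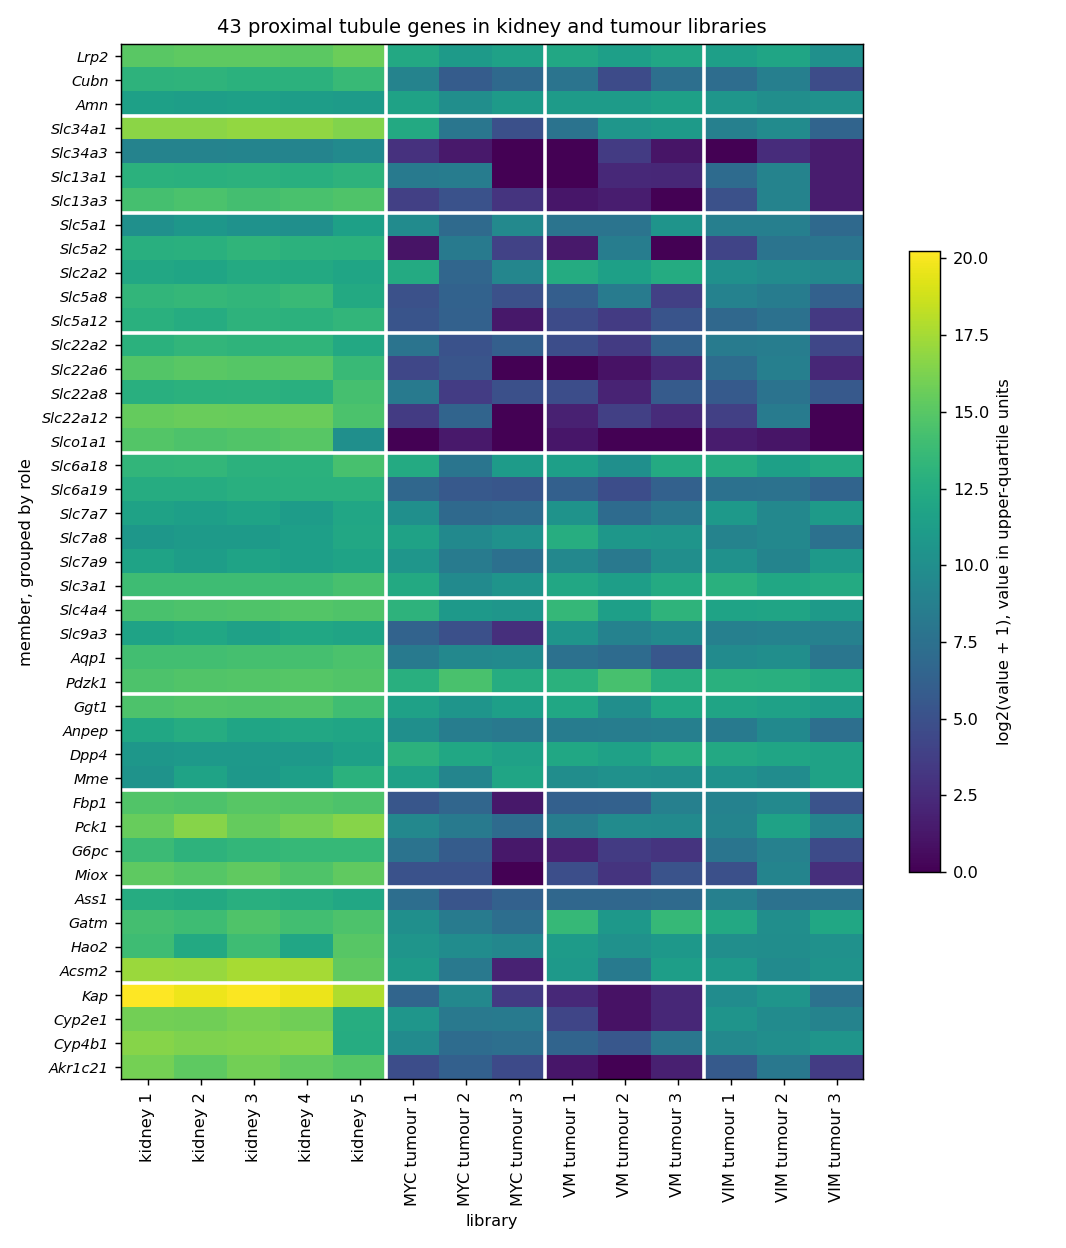
Level of the 43 members (1 row each, grouped by role with white rules) in the 5 kidney and 9 tumour libraries, as log2(value + 1) with the value in upper-quartile units. Most members are bright across the kidneys and dark across the tumours, with Amn, Slc2a2, Slc7a8, Dpp4 and Mme as exceptions, and kidney 5 is darker for Slco1a1, Cyp2e1 and Cyp4b1.

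The first question was how far the members in tumours of each genotype differed from kidney. The cell in which the tumours arose was not tested, so a fall below means a lower level than in kidney. Against kidney, 38 members fell and 1 rose in MYC tumours, 39 fell and 1 rose in VM tumours, and 41 fell and none rose in VIM tumours. A call here needs a Benjamini-Hochberg adjusted p under 0.05 in limma, over all genes tested, and a change above 1 on the log2(value + 1) scale. The background was 18.6% of genes lower and 18.8% higher in MYC tumours, 22.5% lower and 17.3% higher in VM tumours, and 20.7% lower and 18.9% higher in VIM tumours. The median log2 change of the members was -6.26, -6.74 and -5.44 in MYC, VM and VIM tumours, where that of all genes tested was 0.07, -0.05 and 0.01. All 38 members that fell in MYC tumours also fell in the other genotypes. These comparisons share the kidneys, and mouse 2983 counted as 1 sample by the mean of its libraries on the log2 scale, so that 2 MYC, 3 VM and 3 VIM mice were set against 5 kidneys. Log2 changes are given below with their standard error after the ± sign, in the order MYC, VM and VIM unless stated.

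Every tumour library was below every kidney library for 38 members in MYC tumours, 38 in VM tumours and 41 in VIM tumours, and for 37 members in all genotypes. Among all genes this held for 23.5%, 26.6% and 24.4%. The ranges of tumour and kidney overlapped for Amn, Slc2a2, Slc7a8 and Mme in MYC tumours, for Amn, Slc2a2, Slc7a8 and Slc5a1 in VM tumours and for Mme in VIM tumours. Dpp4 lay above kidney in all 9 tumour libraries. Without kidney 5 the members that fell numbered 38, 38 and 41. With only the KT kidneys of the titles they numbered 36, 38 and 39, and with only the B6 kidneys 33, 33 and 38.

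**Figure D2:**
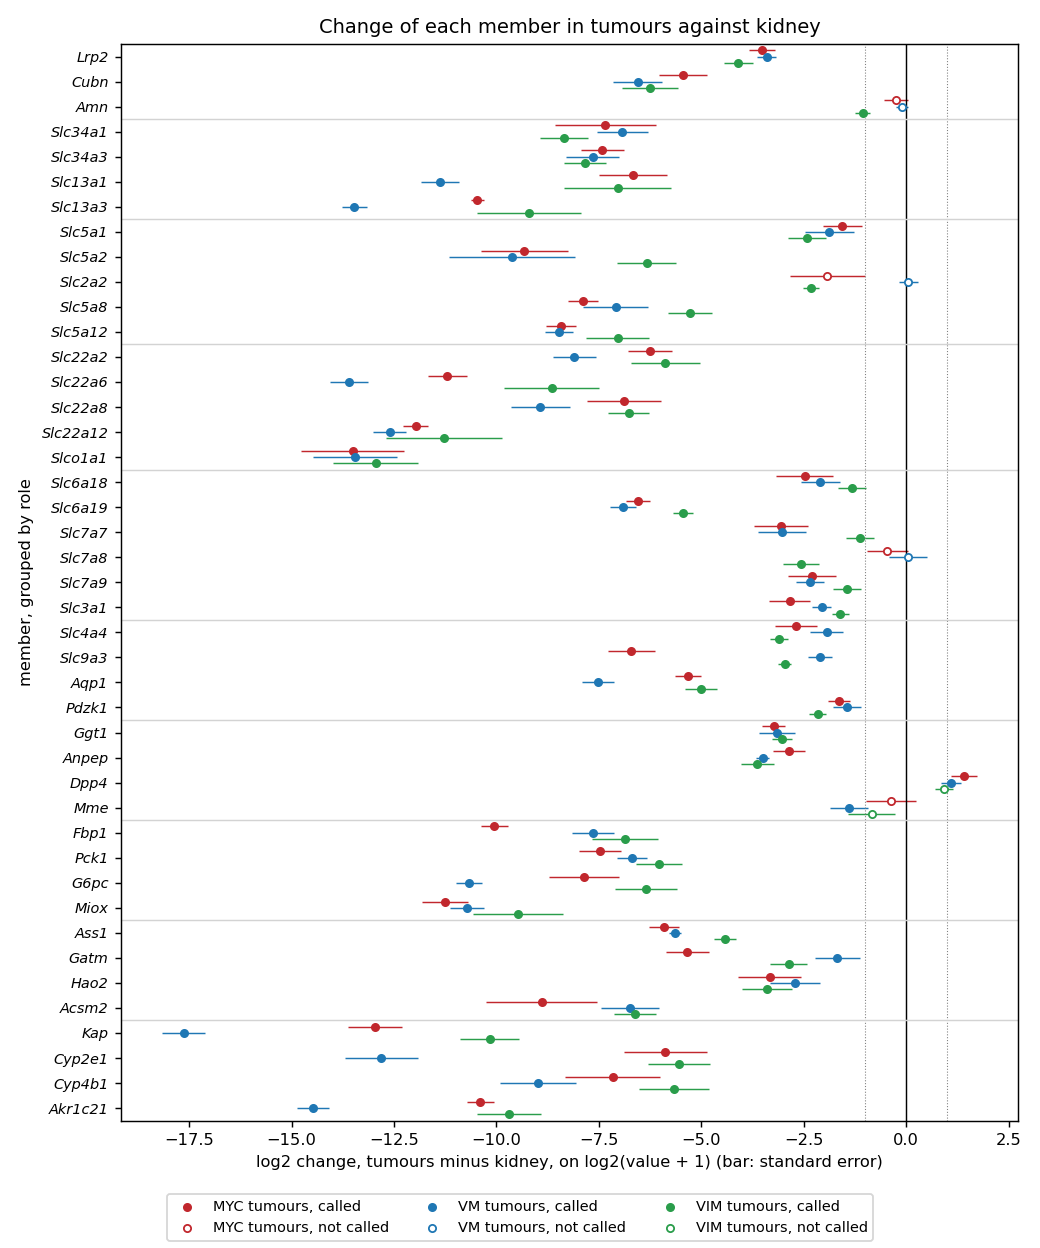
Log2 change of each member in MYC (red), VM (blue) and VIM (green) tumours against kidney, with its standard error as a bar, where filled points passed the test, open ones did not, and dotted lines mark a change of 1 either way. Dpp4 alone lies to the right of 0 in every genotype, and Kap in VM tumours, at -17.64, lies farthest to the left.

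Of the endocytic receptors, which take filtered proteins into the cell, Lrp2 and Cubn fell in every genotype and Amn fell in VIM tumours. Lrp2, which encodes megalin, was at 33898, 37428, 37203, 35143 and 53957 units in the kidneys, 4633, 2043 and 2982 in the MYC tumours, 4473, 2757 and 4021 in the VM tumours and 2723, 3748 and 1164 in the VIM tumours. Every tumour was below every kidney, at 2.94 to 11.7% of the kidney mean, and kidney 5 was the highest kidney. Its log2 changes in MYC, VM and VIM tumours were -3.52 ± 0.32, -3.41 ± 0.23 and -4.09 ± 0.35. Cubn, which encodes cubilin, was at 8467, 9213, 7593, 8199 and 12982 units in the kidneys, 526, 57.1 and 120.1 in the MYC tumours, 216, 23.7 and 171 in the VM tumours and 151, 419.8 and 25.7 in the VIM tumours. It varied widely among tumours of each genotype without reaching the kidneys. For Cubn the log2 changes were -5.44 ± 0.59, -6.55 ± 0.60 and -6.25 ± 0.69. Amn, which encodes amnionless, the membrane anchor of cubilin, was at 2958, 2607, 2904, 2484 and 2191 units in the kidneys, 3299, 1017 and 2109 in the MYC tumours, 2252, 2209 and 2919 in the VM tumours and 1616, 1000 and 1206 in the VIM tumours. MYC and VM tumours overlapped the kidneys, and only VIM tumours lay wholly below them. Amn had log2 changes of -0.25 ± 0.28, -0.10 ± 0.15 and -1.06 ± 0.18, and the call in VIM tumours was lost without VIM tumour 2, at -0.90.

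All 4 phosphate, sulfate and dicarboxylate transporters fell in every genotype. Slc34a1, the main sodium-phosphate cotransporter of the brush border, was at 105882, 106061, 126600, 120476 and 86261 units in the kidneys, 5020, 252 and 29.7 in the MYC tumours, 212, 1605 and 2051 in the VM tumours and 441, 881 and 89.9 in the VIM tumours. MYC tumour 1 was the highest tumour and still lay far below the lowest kidney. Slc34a1 had log2 changes of -7.35 ± 1.23, -6.93 ± 0.62 and -8.36 ± 0.59. Slc13a3, a dicarboxylate transporter, was at 19735, 23377, 19133, 21656 and 25911 units in the kidneys, 13.1, 34 and 7.06 in the MYC tumours, 1.33, 2.06 and 0 in the VM tumours and 32, 540.1 and 1.84 in the VIM tumours. VM tumours were at or under the floor, and VIM tumour 2, the library with the most RNA of later segments, was the highest tumour. Slc13a3 had log2 changes of -10.47 ± 0.16, -13.47 ± 0.31 and -9.20 ± 1.27, and that in VM tumours depends on the value of 1 that was added before taking logs. Slc13a1, a sulfate transporter, was at 7685, 7255, 8162, 6979 and 8574 units in the kidneys, 302, 361 and 0 in the MYC tumours, 0, 4.12 and 3.70 in the VM tumours and 132, 538 and 1.84 in the VIM tumours. Its tumour values ran from 0 to 538, with the 2 highest in MYC tumour 2 and VIM tumour 2. Slc13a1 had log2 changes of -6.67 ± 0.83, -11.38 ± 0.46 and -7.04 ± 1.31. Slc34a3, a further phosphate transporter, changed by -7.42, -7.66 and -7.84.

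Among glucose and monocarboxylate transporters, Slc5a2, Slc5a8, Slc5a12 and Slc5a1 fell in every genotype, while Slc2a2 fell in VIM tumours. Slc5a2, the sodium-glucose cotransporter SGLT2 of the early proximal tubule, was at 7113, 7232, 9918, 8036 and 7564 units in the kidneys, 1.12, 320.5 and 15.2 in the MYC tumours, 1.66, 385 and 0 in the VM tumours and 16.6, 222 and 238 in the VIM tumours. No tumour reached the lowest kidney, and libraries of the same genotype were far apart. For Slc5a2 the log2 changes were -9.32 ± 1.06, -9.61 ± 1.53 and -6.34 ± 0.73. Slc5a1, the SGLT1 of the later part, was at 1116, 1702, 1246, 1080 and 2913 units in the kidneys, 846, 127 and 732 in the MYC tumours, 214, 224 and 1406 in the VM tumours and 420.0, 425 and 119 in the VIM tumours. Only VM tumour 3 was within the range of the kidneys, and kidney 5 was the highest kidney. For Slc5a1 the log2 changes were -1.56 ± 0.47, -1.87 ± 0.59 and -2.43 ± 0.46, the smallest of the group in MYC and VM tumours among those that passed. The call of Slc5a1 in MYC tumours was lost without MYC tumour 2, at -0.92, and that in VM tumours without VM tumour 1 or 2, at -1.41 and -1.44. Slc2a2, the glucose transporter GLUT2 of the basolateral side, was at 4514, 3762, 5158, 5028 and 3832 units in the kidneys, 5391, 98.8 and 641 in the MYC tumours, 5687, 2961 and 5703 in the VM tumours and 1153, 858 and 692 in the VIM tumours. MYC tumour 1 and VM tumours 1 and 3 were above all kidneys, whereas all VIM tumours were below them. For Slc2a2 the log2 changes were -1.92 ± 0.93, 0.05 ± 0.23 and -2.32 ± 0.20. Slc5a12, a lactate transporter, was at 7175, 5907, 8570, 8147 and 10396 units in the kidneys, 37.3, 77.2 and 1.41 in the MYC tumours, 24, 10.3 and 38.2 in the VM tumours and 113, 187 and 9.18 in the VIM tumours. The highest tumour was VIM tumour 2 and lay far below the lowest kidney. Slc5a12 had log2 changes of -8.43 ± 0.37, -8.47 ± 0.35 and -7.04 ± 0.77, and those of Slc5a8, another monocarboxylate transporter, were -7.89, -7.09 and -5.27.

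All 5 organic anion and cation transporters were lower in every genotype, with median log2 changes of -11.20, -12.61 and -8.65. Slco1a1, an organic anion transporter of the brush border, was at 28955, 25124, 28134, 32011 and 1073 units in the kidneys, 0, 1.54 and 0 in the MYC tumours, 1.33, 0 and 0 in the VM tumours and 1.88, 1.25 and 0 in the VIM tumours. No tumour library exceeded its floor, and kidney 5 was far below the other kidneys. Slco1a1 had log2 changes of -13.51 ± 1.25, -13.44 ± 1.03 and -12.95 ± 1.04 and, without kidney 5, -14.46, -14.39 and -13.90. Slc22a6, the anion transporter OAT1, was at 28564, 33809, 31343, 32150 and 13122 units in the kidneys, 18.7, 40.1 and 0 in the MYC tumours, 0, 1.03 and 3.70 in the VM tumours and 141, 421 and 3.67 in the VIM tumours. Kidney 5 was the lowest kidney, and the tumours, again highest in VIM tumour 2, lay far below it. Slc22a6 had log2 changes of -11.20 ± 0.48, -13.60 ± 0.47 and -8.65 ± 1.16. Slc22a2, the cation transporter OCT2, was at 7981, 10174, 9237, 9795 and 4663 units in the kidneys, 222, 34 and 70.6 in the MYC tumours, 26.6, 10.3 and 80.1 in the VM tumours and 348, 382 and 18.4 in the VIM tumours. Kidney 5 was the lowest kidney, and the highest tumour was far below it. Slc22a2 had log2 changes of -6.26 ± 0.53, -8.10 ± 0.53 and -5.88 ± 0.85. Slc22a12, the urate transporter, changed by -11.97, -12.61 and -11.28, and Slc22a8, the anion transporter OAT3, by -6.89, -8.93 and -6.77.

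Amino acid transporters fell less, with median log2 changes of -2.66, -2.22 and -1.53, and 5, 5 and 6 of 6 passed the test. Slc6a19, the main neutral amino acid transporter of the brush border, was at 5972, 5902, 6778, 7399 and 7235 units in the kidneys, 107, 49.4 and 42.4 in the MYC tumours, 74.6, 26.8 and 78.9 in the VM tumours and 188, 201 and 91.8 in the VIM tumours. Kidneys and tumours were far apart. Slc6a19 had log2 changes of -6.54 ± 0.29, -6.91 ± 0.31 and -5.44 ± 0.25, the largest of the group. Slc7a9, the light chain of the transporter of cystine and basic amino acids, was at 3343, 2466, 3442, 2669 and 3479 units in the kidneys, 1584, 336 and 174 in the MYC tumours, 715, 297 and 1022 in the VM tumours and 1234, 564 and 2003 in the VIM tumours. Each tumour was below each kidney, with the smallest gap for VIM tumour 3. For Slc7a9 the log2 changes were -2.30 ± 0.58, -2.34 ± 0.34 and -1.45 ± 0.34. Slc3a1, the heavy chain that pairs with Slc7a9, was at 15718, 16236, 15618, 15689 and 20937 units in the kidneys, 5095, 799 and 1408 in the MYC tumours, 4603, 2603 and 5329 in the VM tumours and 7270, 4219 and 5411 in the VIM tumours. Both chains thus stayed well above the floor in all tumours. For Slc3a1 the log2 changes were -2.85 ± 0.50, -2.06 ± 0.24 and -1.61 ± 0.21. Slc7a7, which exports basic amino acids on the basolateral side, was at 3159, 2676, 3399, 2359 and 4008 units in the kidneys, 1057, 119 and 138 in the MYC tumours, 1379, 137 and 275 in the VM tumours and 1873, 692 and 2109 in the VIM tumours. VIM tumours 1 and 3 were the closest to the kidneys. For Slc7a7 the log2 changes were -3.05 ± 0.66, -3.03 ± 0.59 and -1.13 ± 0.34. Slc7a8, a basolateral exchanger of neutral amino acids, was at 1718, 2031, 2062, 2743 and 4529 units in the kidneys, 3316, 793 and 1177 in the MYC tumours, 6221, 1668 and 1543 in the VM tumours and 539, 703 and 187 in the VIM tumours. MYC and VM tumours overlapped the kidneys, and VM tumour 1 was above them all. For Slc7a8 the log2 changes were -0.46 ± 0.50, 0.04 ± 0.47 and -2.57 ± 0.44. Slc6a18, a glycine and neutral amino acid transporter, changed by -2.48, -2.09 and -1.33. In VIM tumours the calls of Slc7a7 and Slc7a9 were lost without VIM tumour 2, at -0.63 and -0.96.

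The 4 genes of sodium, bicarbonate and water handling fell in every genotype. Slc9a3, the sodium-proton exchanger NHE3, was at 3393, 4324, 3033, 4156 and 3670 units in the kidneys, 86.8, 29.3 and 5.65 in the MYC tumours, 1507, 502 and 824 in the VM tumours and 437, 511 and 464 in the VIM tumours. MYC tumours reached at most 86.8 units and the other tumours lay between 437 and 1507. For Slc9a3 the log2 changes were -6.71 ± 0.57, -2.11 ± 0.30 and -2.97 ± 0.16, and the difference between genotypes did not pass the test given further on. Aqp1, the water channel, was at 17304, 17222, 19788, 19596 and 23890 units in the kidneys, 307, 682 and 835 in the MYC tumours, 190.4, 134 and 44.4 in the VM tumours and 849, 1016 and 251 in the VIM tumours. VM tumours were the lowest. For Aqp1 the log2 changes were -5.33 ± 0.32, -7.52 ± 0.38 and -5.01 ± 0.39. Pdzk1, a scaffold that holds transporters in the brush border, was at 24304, 27603, 29269, 30461 and 26941 units in the kidneys, 6926, 21847 and 5992 in the MYC tumours, 7562, 20708 and 6764 in the VM tumours and 7228, 7043 and 4666 in the VIM tumours. MYC tumour 2 and VM tumour 2 came close to the lowest kidney, and the other tumours did not. Pdzk1 had log2 changes of -1.63 ± 0.26, -1.44 ± 0.34 and -2.16 ± 0.21. Slc4a4, the basolateral bicarbonate cotransporter, changed by -2.69, -1.94 and -3.10.

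Of the brush border peptidases, Ggt1 and Anpep fell, Dpp4 rose in MYC and VM tumours, and Mme fell in VM tumours. Ggt1, which cleaves glutathione, was at 24003, 27277, 25663, 27379 and 16386 units in the kidneys, 3126, 1488 and 2780 in the MYC tumours, 4317, 1011 and 4324 in the VM tumours and 3706, 3132 and 2155 in the VIM tumours. The kidneys, with kidney 5 lowest, were well apart from the tumours. For Ggt1 the log2 changes were -3.23 ± 0.28, -3.16 ± 0.44 and -3.02 ± 0.24. Anpep, aminopeptidase N, was at 4161, 5777, 3916, 4562 and 3710 units in the kidneys, 1076, 387 and 285 in the MYC tumours, 354, 376 and 427 in the VM tumours and 322, 789 and 169 in the VIM tumours. MYC tumour 1 was the highest tumour and remained below the kidneys. Anpep had log2 changes of -2.87 ± 0.39, -3.50 ± 0.16 and -3.64 ± 0.40. Dpp4, dipeptidyl peptidase 4, was at 1656, 1819, 1991, 2020 and 2936 units in the kidneys, 8085, 4349 and 3103 in the MYC tumours, 4214, 3143 and 6351 in the VM tumours and 4800, 3764 and 3222 in the VIM tumours. The lowest tumour was above the highest kidney, which was kidney 5. For Dpp4 the log2 changes were 1.42 ± 0.32, 1.10 ± 0.25 and 0.92 ± 0.21, with limma adjusted p of 0.00615, 0.00368 and 0.00458, and the last was under the limit of 1 on the log2 scale. The call in MYC tumours was lost without MYC tumour 1, and that in VM tumours without VM tumour 3 or with only the KT kidneys. Mme, neprilysin, was at 1353, 3426, 1779, 2682 and 7695 units in the kidneys, 3131, 586 and 3891 in the MYC tumours, 943, 1190 and 1079 in the VM tumours and 1269, 911 and 3277 in the VIM tumours. The kidneys themselves ranged from 1353 to 7695 units, and overlapped MYC and VIM tumours. Mme had log2 changes of -0.36 ± 0.61, -1.39 ± 0.47 and -0.84 ± 0.57, and its call in VM tumours was lost without any 1 of the VM tumours, at -1.47 to -1.30, and without kidney 2, at -1.32.

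Gluconeogenesis and inositol enzymes all fell. Miox, which opens the inositol ring and is nearly confined to this tubule, was at 37723, 30164, 40428, 25279 and 40944 units in the kidneys, 32.6, 32.4 and 0 in the MYC tumours, 28, 7.22 and 34.5 in the VM tumours and 30.1, 560.2 and 5.51 in the VIM tumours. All tumours other than VIM tumour 2 were at most at 34.5 units. For Miox the log2 changes were -11.27 ± 0.57, -10.72 ± 0.42 and -9.47 ± 1.10 and, without VIM tumour 2, -11.24 in VIM tumours. G6pc, which releases free glucose, was at 14303, 8835, 10831, 12215 and 12111 units in the kidneys, 203, 58.6 and 1.41 in the MYC tumours, 2.66, 10.3 and 7.40 in the VM tumours and 229.8, 487 and 23.9 in the VIM tumours. MYC tumour 3 and the VM tumours were near the floor or a little above it. For G6pc the log2 changes were -7.86 ± 0.86, -10.68 ± 0.32 and -6.35 ± 0.76. Pck1, the enzyme that commits carbon to gluconeogenesis, was at 47254, 95231, 44333, 64717 and 99255 units in the kidneys, 691, 299 and 137 in the MYC tumours, 373, 858 and 816 in the VM tumours and 567, 3226 and 562 in the VIM tumours. The lowest tumour, MYC tumour 3, still held 137 units. For Pck1 the log2 changes were -7.46 ± 0.52, -6.69 ± 0.36 and -6.04 ± 0.57. Fbp1, fructose bisphosphatase, changed by -10.05, -7.65 and -6.86.

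The enzymes of arginine, creatine and fatty acid metabolism also all fell. Acsm2, a medium-chain acyl-CoA synthetase, was at 146021, 139064, 192095, 183625 and 41061 units in the kidneys, 2030, 292 and 2.82 in the MYC tumours, 1854, 322 and 2628 in the VM tumours and 1838, 831 and 1322 in the VIM tumours. MYC tumour 3 was nearly empty, and kidney 5 was the lowest kidney. Acsm2 had log2 changes of -8.89 ± 1.35, -6.74 ± 0.71 and -6.62 ± 0.50. Hao2, a hydroxyacid oxidase, was at 15912, 5034, 15913, 3925 and 31662 units in the kidneys, 1512, 921 and 671 in the MYC tumours, 2205, 1186 and 1790 in the VM tumours and 996, 969.9 and 1173 in the VIM tumours. The kidneys spread from 3925 to 31662 units, and all tumours were below them. For Hao2 the log2 changes were -3.33 ± 0.77, -2.71 ± 0.62 and -3.39 ± 0.61. Gatm, which makes the precursor of creatine, was at 19010, 15473, 26629, 17599 and 24735 units in the kidneys, 1089, 336 and 155 in the MYC tumours, 11755, 1811 and 11954 in the VM tumours and 4846, 1038 and 4224 in the VIM tumours. VM tumours 1 and 3 came closest to the kidneys. For Gatm the log2 changes were -5.34 ± 0.52, -1.68 ± 0.56 and -2.87 ± 0.46, and the call in VM tumours was lost without VM tumour 2, at -0.77, without kidney 3, at -1.58, and without kidney 5, at -1.60. Ass1, argininosuccinate synthase, changed by -5.91, -5.64 and -4.43.

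Kap, the cytochromes P450 and the steroid dehydrogenase Akr1c21 fell in every genotype, with median log2 changes of -8.78, -13.64 and -7.68. Kap, the kidney androgen-regulated protein and among the most abundant mRNAs of the male mouse kidney, lies in mm9 at chr6:133799873-133803685 on the - strand with 4 exons. Kap was at 1234950, 849961, 1117526, 813562 and 233226 units in the kidneys, 97, 685 and 9.89 in the MYC tumours, 3.99, 1.03 and 3.70 in the VM tumours and 904, 1516 and 193 in the VIM tumours. VM tumours were at or near the floor, and MYC and VIM tumours overlapped each other. Kap had log2 changes of -12.97 ± 0.66, -17.64 ± 0.53 and -10.17 ± 0.73. Cyp2e1, which oxidizes small molecules such as ethanol, was at 63888, 58472, 73171, 60322 and 6278 units in the kidneys, 1555, 285 and 314 in the MYC tumours, 17.3, 1.03 and 3.70 in the VM tumours and 1394, 872 and 523 in the VIM tumours. VM tumours were again the lowest, and kidney 5 was far below the other kidneys. For Cyp2e1 the log2 changes were -5.87 ± 1.02, -12.81 ± 0.89 and -5.54 ± 0.76. Cyp4b1, a monooxygenase, was at 95029, 81134, 88549, 97000 and 5918 units in the kidneys, 856, 144 and 168 in the MYC tumours, 93.2, 43.3 and 264 in the VM tumours and 727, 1020 and 1476 in the VIM tumours. Kidney 5 was again low, and each tumour was still lower. For Cyp4b1 the log2 changes were -7.16 ± 1.16, -8.98 ± 0.94 and -5.66 ± 0.86 and, without kidney 5, -7.94, -9.77 and -6.45. Akr1c21 changed by -10.40, -14.47 and -9.69, with VM tumours at or under the floor.

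Kidney 5 stood apart from the other kidneys in many of these genes. It was more than 2-fold below the mean of the other 4 for 8 members and more than 2-fold above it for 6, where 2.87% and 6.06% did so among the 11584 genes whose mean over kidneys reached 50 units. The 8 lower members were Slco1a1, Cyp4b1, Cyp2e1, Kap, Acsm2, Slc22a6, Slc5a8 and Slc22a12. Slco1a1 was at 1073 units in kidney 5 and at 25124 to 32011 in the others, or 26.6-fold lower than their mean. Cyp4b1 was 15.3-fold and Cyp2e1 10.2-fold lower, and Kap 4.30-fold lower. The 6 higher members were Mme, at 3.33-fold, Hao2, at 3.11-fold, Slc22a8, Slc6a18, Slc5a1 and Slc7a8. Kap is known to be induced by androgens, and Slco1a1 and Cyp4b1 to be higher in males. Kidney 5 was also the library with high Xist and low Ddx3y, and the part of sex in these values was not tested. This is 1 library, so it was not tested as a group. An outlier ratio for single libraries is given further on.

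**Figure D3:**
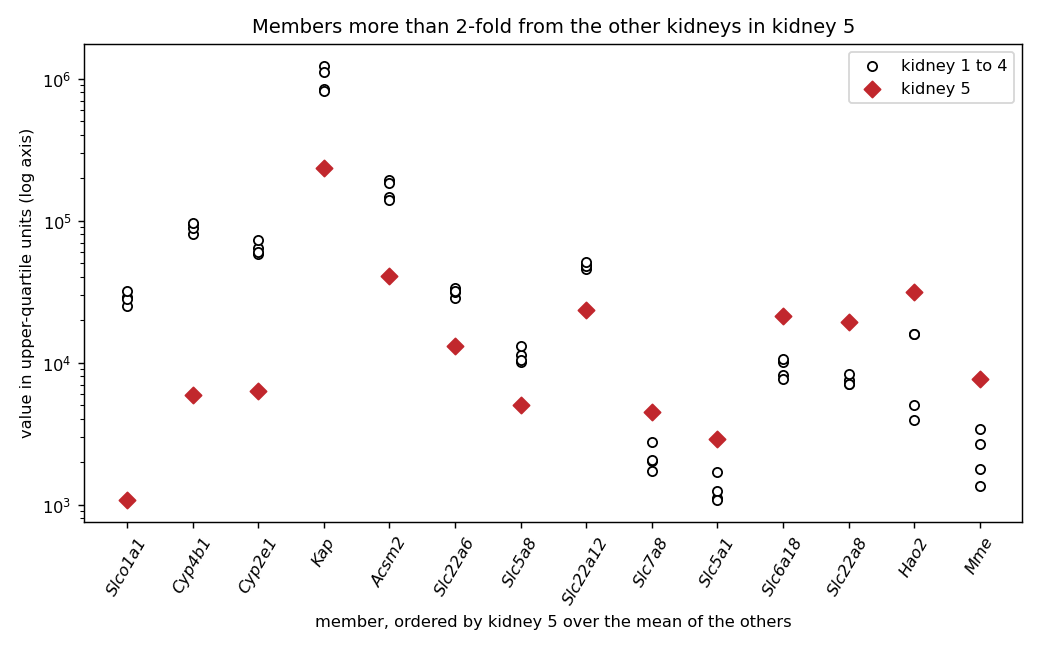
The 14 members that differed more than 2-fold between kidney 5 (red diamond) and the mean of kidneys 1 to 4 (open circles), in upper-quartile units on a log axis. Slco1a1, Cyp4b1 and Cyp2e1 lie more than 10-fold below the other kidneys, and kidneys 1 to 4 lie close together for these genes.

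The tumours held the members at different levels. The median of a tumour library over members, as a percent of the kidney mean, was 2.97, 0.803 and 0.636 in the MYC tumours, 1.12, 1.72 and 1.84 in the VM tumours and 4.16, 4.57 and 1.38 in the VIM tumours. The sums of the 17 markers of later segments were 549, 3438 and 583 units, 99.9, 146 and 549 units, and 719, 8427 and 389 units in the same order. VIM tumour 2 had the highest value of both. MYC tumour 1 was high for the members and not for the markers, and MYC tumour 2 the reverse. Umod, the defining marker of the thick ascending limb, was at 24.3, 2475 and 74.9 in the MYC tumours, 0, 1.03 and 0 in the VM tumours and 109, 3228 and 34.9 in the VIM tumours. Without VIM tumour 2, 38 members fell in VIM tumours and their median log2 change was -5.50. Without MYC tumour 2, 37 fell in MYC tumours, with a median of -6.51. Normal tissue within these libraries and its part in the differences was not tested.

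**Figure D4:**
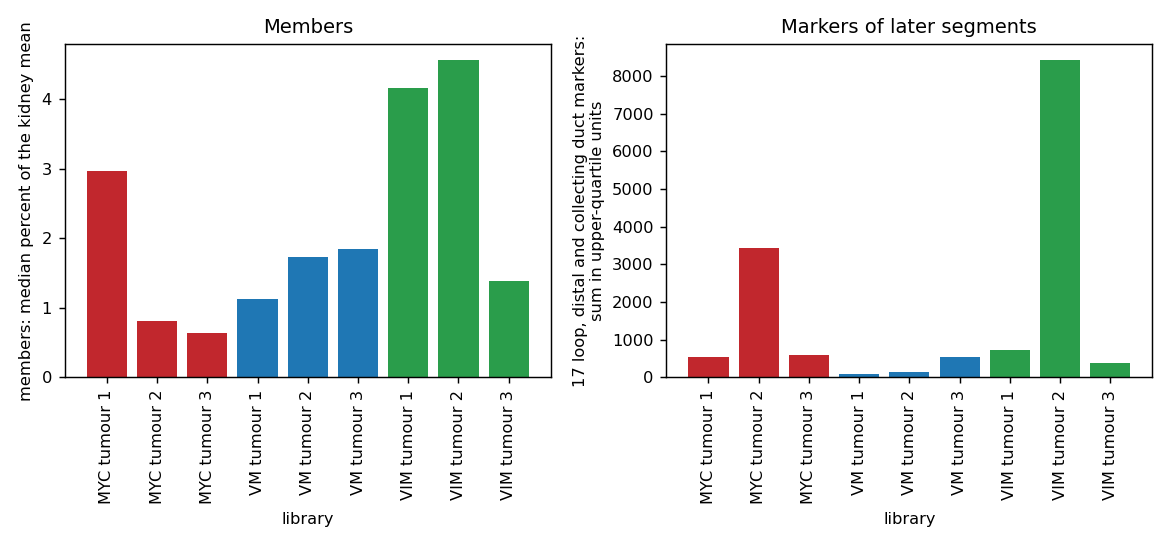
Left, the median over the 43 members of the level in each tumour library as a percent of the kidney mean. Right, the sum of 17 markers of the loop, distal tubule and collecting duct in upper-quartile units. Bars start at 0 and are red for MYC, blue for VM and green for VIM tumours, and VIM tumour 2 is highest in both panels.

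The next question was whether the members differed between tumour genotypes. None of the 16085 genes tested passed between VM and MYC tumours in limma (0%), with 2110 genes and 11 members at an unadjusted p under 0.05. Between VIM and MYC tumours 1 gene of 16246 passed (0.00616%) and no member, with 2361 genes and 6 members at an unadjusted p under 0.05. A fit over kidney and all tumours together called 5 members between VM and MYC tumours and 1 between VIM and MYC tumours. The share of all genes that this joint fit called is not given here, so these counts have no background. Between VIM and VM tumours 0.174% of genes were higher and 0.0746% lower in VIM, and 3 members passed. Kap and Cyp2e1 were higher, by 7.47 ± 0.86 and 7.27 ± 0.84 on the log2 scale, with a limma adjusted p of 0.0242 for each. In VM tumours Kap was at most at 3.99 units and the median of Cyp2e1 was 3.70 units. The size of both differences thus depends on the value of 1 that was added before taking logs. Slc2a2 was lower, with a log2 difference of -2.38 ± 0.33 with an adjusted p of 0.0344. The VIM and VM libraries did not overlap for any of these genes, which were picked by the test on the same libraries, so this adds no support. With 3 tumours in each group the calls were not stable: leaving out 1 library at a time left 0 to 2 members called. The calls of Kap, Cyp2e1 and Slc2a2 were all lost without VIM tumour 1 or 2, or without VM tumour 2 or 3. That of Slc2a2 was lost whichever library was left out.

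Other genes of the same segment moved with the members. Of 61 further proximal tubule genes, 53 fell in MYC tumours, 55 in VM tumours and 51 in VIM tumours, with medians of -4.85, -4.91 and -4.16, and 2 rose, both in VIM tumours. Slc7a13, a transporter of the last part of the segment, was at 33265, 26905, 24616, 24648 and 865 units in the kidneys, 2.80, 4.63 and 0 in the MYC tumours, 0, 0 and 1.23 in the VM tumours and 1.88, 60.2 and 3.67 in the VIM tumours, and Slc22a28, an anion transporter gene, was at 12777, 9210, 13120, 10388 and 1141 units in the kidneys, 4.66, 1.54 and 0 in the MYC tumours, 0 in every library in the VM tumours and 0, 1.25 and 0 in the VIM tumours. These were the largest falls, and both genes were low in kidney 5. Cyp27b1, which activates vitamin D, was at 51.9, 43.8, 52.2, 96.1 and 106 units in the kidneys, 329, 47.8 and 11.3 in the MYC tumours, 130.5, 115 and 123 in the VM tumours and 418, 213 and 619 in the VIM tumours. Ddc, which makes dopamine, was at 1434, 1790, 1300, 1458 and 3246 units in the kidneys, 766, 1573 and 879 in the MYC tumours, 7406, 1097 and 2321 in the VM tumours and 4921, 3494 and 6129 in the VIM tumours. VIM tumours were above every kidney for both, and the rises there were 2.52 ± 0.43 and 1.44 ± 0.31.

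The transcription factors of the segment fell less than its transporters. Of 10, 4 fell in MYC tumours, 6 in VM tumours and 5 in VIM tumours and none rose, with medians of -1.26, -1.40 and -1.16. Ppara, a regulator of fatty acid oxidation, was at 3289, 3564, 3627, 4003 and 3847 units in the kidneys, 377, 419.8 and 87.6 in the MYC tumours, 165, 122 and 289.8 in the VM tumours and 463, 663 and 261 in the VIM tumours. Ppara had log2 changes of -3.76 ± 0.23, -4.34 ± 0.24 and -3.08 ± 0.26. Hnf4a was at 14260, 16870, 16846, 17332 and 15099 units in the kidneys, 7565, 4472 and 4157 in the MYC tumours, 1830, 4633 and 2861 in the VM tumours and 3879, 4391 and 3908 in the VIM tumours. Every tumour was below every kidney, and the log2 changes were -1.49 ± 0.24, -2.47 ± 0.26 and -1.98 ± 0.16.

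Markers of injured tubule rose over the same libraries, with 4 of 5 higher in each genotype. Krt20, a keratin, was at 5.19, 1.46, 6.69, 1.63 and 2.53 units in the kidneys, 3515, 1231 and 5032 in the MYC tumours, 302, 237 and 2745 in the VM tumours and 6505, 4175 and 977 in the VIM tumours. Spp1, which encodes osteopontin, was at 10694, 14489, 11760, 8958 and 38220 units in the kidneys, 192280, 86373 and 233606 in the MYC tumours, 235375, 168543 and 147825 in the VM tumours and 176377, 144424 and 61074 in the VIM tumours. Every tumour was above every kidney for both. Their log2 changes were 9.51 ± 0.56, 7.17 ± 0.80 and 9.53 ± 0.65 for Krt20, whose kidney values were near the floor, and 3.52 ± 0.55, 3.64 ± 0.45 and 3.01 ± 0.51 for Spp1. Of the markers of other cell types, 16, 17 and 16 of 17 for the later tubule segments fell, 3, 4 and 3 of 5 for podocytes, 5, 4 and 5 of 5 for endothelium and 1, 3 and 1 of 5 for fibroblasts, in MYC, VM and VIM tumours. Of 5 leukocyte markers, 2 rose in each genotype and 1 fell in VM and in VIM tumours. The proximal tubule was thus not the only compartment whose markers were lower, and the part of tissue composition in the falls was not tested.

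The cell lines were then set against the tumours of their own genotype. With Dox, 12 members were at 0 in all 4 libraries of the MYC cells, 16 in the VM cells and 18 in the VIM cells, and 19, 23 and 26 were at or under the floor throughout. In MYC cells 37 of 42 members tested were lower than in MYC tumours and 1 was higher (background 26.1% and 12.3%). In VM cells 30 of 43 were lower and 2 higher (28.4% and 12.3%), and in VIM cells 36 of 43 were lower and none higher (32.6% and 13.3%). Members at 0 in every cell library entered these tests through the tumours alone, so they could only be lower. The counts thus do not measure how far such members fell. The call of Slc34a3 in MYC cells was lost without any 1 of the MYC cell libraries. The median log2 changes were -4.62, -4.13 and -5.78, or -4.37, -3.97 and -5.47 with members at 0 in the cells set to the floor, and those of all genes -0.21, -0.32 and -0.41. After quantile normalization 31, 28 and 35 members were lower and 1, 3 and 0 higher. The same 29 members were lower in all lines. Cells and tumours were separate sets of libraries, so the kind of sample and its preparation cannot be told apart. The titles give mouse 2983 for the MYC line and for MYC tumours 2 and 3, and the methods give number 3055 for the VM line, which is also the mouse of VM tumour 2. The fits took the cultures of a line as independent of the tumours and of each other.

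Kap, Cyp2e1, Akr1c21 and Slc34a3 were at 0 in all 12 cell libraries with Dox, as were Slc34a1, Slc22a6, Slc22a8 and Acsm2. With the floor standing for the cells, Slc34a1 was at least 253-fold lower in MYC cells than the mean of their tumours on the log2 scale. The bound against that mean was 255-fold in VM cells and 105-fold in VIM cells. The lowest MYC, VM and VIM tumours held 29.7, 212 and 89.9 units, so the bounds do not hold for each tumour. Over these genes the bounds ran from 1.32-fold (Slc34a3) to 260.2-fold (Cyp2e1) in MYC cells, from 1.04-fold (Kap) to 334-fold (Acsm2) in VM cells and from 17.6-fold (Akr1c21) to 404-fold (Acsm2) in VIM cells, and where the tumours were themselves low no bound was given. Without Dox none of these genes was above the floor in any of 12 cell libraries, and Slc34a1, Slc22a6 and Acsm2 held a value above 0 in 1, 2 and 1 of them.

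Among members still measured, Lrp2 was at 3699, 3731, 3359 and 4169 units in the MYC cells, 5272, 4856, 4718 and 3846 in the VM cells and 3669, 3166, 3339 and 3456 in the VIM cells. These are within or close to the range of the tumours, and its log2 changes of 0.14 ± 0.24, 0.34 ± 0.18 and 0.58 ± 0.35 did not pass. Amn, its coreceptor's anchor, was at 32.4, 22.3, 32 and 29.4 units in the MYC cells, 0, 0, 2.55 and 3.51 in the VM cells and 1.39, 0.693, 0.656 and 1.62 in the VIM cells. It was close to kidney in MYC and VM tumours and lower in every line, with log2 changes of -6.21 ± 0.34, -10.25 ± 0.60 and -9.26 ± 0.31. Slc3a1 was at 3.52, 3.46, 5.0 and 4.73 units in the MYC cells, 6.90, 8.14, 2.95 and 4.09 in the VM cells and 0.812, 1.6, 0.774 and 1.98 in the VIM cells. The transporter chain that stayed at 799 to 7270 units in tumours was thus at most at 8.14 units in culture, with log2 changes of -8.82 ± 0.60, -9.34 ± 0.37 and -11.26 ± 0.30. Dpp4, the member that was higher in tumours than in kidney, was at 178, 178, 196 and 151 units in the MYC cells, 224, 200, 195 and 224 in the VM cells and 124, 95, 104 and 121 in the VIM cells. It was lower than in the tumours in each line, with log2 changes of -4.95 ± 0.30, -4.37 ± 0.22 and -5.12 ± 0.17.

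Aqp1 and Mme went the other way. Aqp1 was at 1224, 1119, 1162 and 1330 units in the MYC cells, 238, 213, 256 and 244 in the VM cells and 708, 587, 594 and 651 in the VIM cells. It was higher in MYC and VM cells than in their tumours, by 1.32 ± 0.33 and 1.18 ± 0.44, and changed by 0.07 ± 0.44 in VIM cells, which did not pass. The call of Aqp1 in MYC cells was lost without MYC tumour 1, at 0.68, and that in VM cells without VM tumour 2 or 3, at 1.35 and 0.57, or without any 1 of the VM cell libraries. Mme was at 2142, 2048, 2067 and 2013 units in the MYC cells, 2561, 2712, 2725 and 2749 in the VM cells and 1179, 1068, 1116 and 1193 in the VIM cells. It was higher in VM cells than in VM tumours, by 1.33 ± 0.10, and the changes of -0.07 ± 0.26 and -0.45 ± 0.38 in the other lines did not pass. Gatm was at 164, 155, 159 and 161 units in the MYC cells, 250.5, 236, 218 and 271 in the VM cells and 1034, 983, 957 and 934 in the VIM cells. VIM cells held the most, and Gatm was lower than in tumours in all lines, with log2 changes of -1.64 ± 0.56, -4.70 ± 0.60 and -1.50 ± 0.48. The calls of Gatm in MYC and VIM cells were lost when any 1 of their cell libraries was left out, and without MYC tumour 1 the change in MYC cells was -0.52. Hnf4a was at 395 to 482 units in MYC cells with Dox, at 18.4 to 29.7 in VM cells and at 0 in all VIM libraries.

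Withdrawal of Dox is meant to turn the MYC transgene off, and the next comparison asked which members differ within a line between libraries labelled with and without Dox. The Myc row itself was lower with Dox, by log2 changes of -1.44 ± 0.03, -1.83 ± 0.06 and -1.96 ± 0.05 in MYC, VM and VIM cells. Filters left 27 members in MYC cells, 23 in VM cells and 19 in VIM cells. With Dox, 4 of these were higher and 7 lower in MYC cells (background 4.49% and 15%), 2 higher and 7 lower in VM cells (5.92% and 18.9%), and 3 higher and 4 lower in VIM cells (7.67% and 16.6%). Ggt1 and Gatm were higher in every line, and Cubn, Slc6a18 and Cyp4b1 lower in every line. Scaling bears on this split. The median log2 change of all genes was -0.13, -0.26 and -0.15, against -0.01, -0.05 and -0.00 after TMM rescaling, which gave 4 higher and 6 lower, 3 and 5, and 5 and 4. Quantile normalization gave 4 higher and 5 lower, 4 and 5, and 6 and 0.

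**Figure D5:**
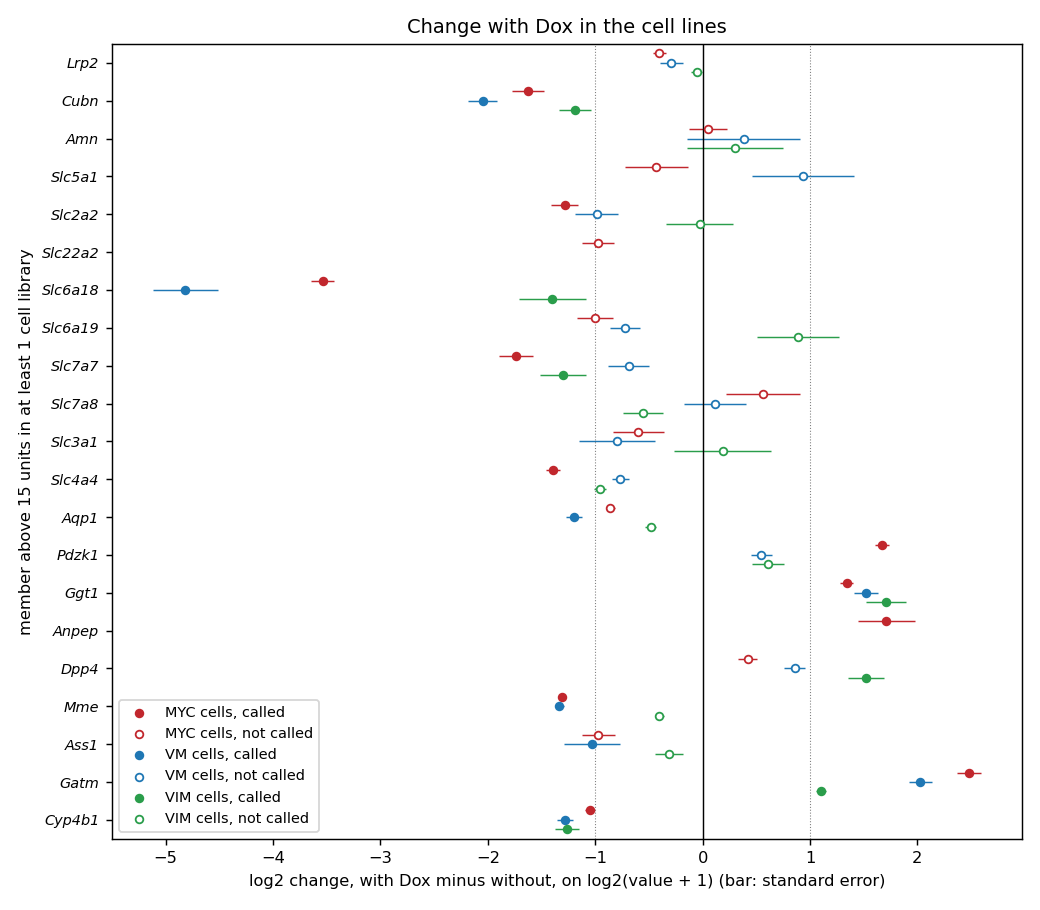
Log2 change with Dox against without it in MYC (red), VM (blue) and VIM (green) cells for the 21 members above 15 units in at least 1 cell library, with standard errors, where filled points passed the test. Ggt1 and Gatm lie to the right of 1 in all lines, and Slc6a18 in VM cells lies farthest to the left, at -4.82.

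Gatm was at 164, 155, 159 and 161 units with Dox and 24.9, 31.6, 24.3 and 31 without it in the MYC cells. In the VM line it was at 250.5, 236, 218 and 271 units with Dox and 58.2, 65.9, 54.3 and 57.7 without it, and in the VIM line at 1034, 983, 957 and 934 units with Dox and 457, 437, 448 and 472 without it. The groups did not overlap in any line, and the log2 changes were 2.48 ± 0.11, 2.03 ± 0.11 and 1.10 ± 0.05. Ggt1 was at 281, 276, 298 and 304 units with Dox and 108, 111, 120.4 and 117 without it in the MYC cells, at 171, 151, 157 and 165 units with Dox and 49.4, 53.1, 62.8 and 57 without it in the VM cells and at 104, 90.8, 96.5 and 107 units with Dox and 19, 37.9, 27.6 and 39 without it in the VIM cells. It too was higher in each library with Dox than in any without, by 1.34 ± 0.06, 1.52 ± 0.11 and 1.71 ± 0.19. Pdzk1 was at 431, 466, 486 and 395 units with Dox and 127, 138, 149 and 140.4 without it in the MYC cells and changed by 1.67 ± 0.07. Its changes of 0.55 ± 0.10 in VM cells and 0.61 ± 0.15 in VIM cells were under the limit. Anpep was at 10.6, 12.5, 11.9 and 15.7 units with Dox and 1.97, 5.26, 2.31 and 3.81 without it in the MYC cells, higher with Dox by 1.71 ± 0.27, and was at or under the floor in the other lines. Dpp4 was at 124, 95, 104 and 121 units with Dox and 32.3, 34.6, 32.7 and 56.4 without it in the VIM cells, higher by 1.52 ± 0.17, while its changes in MYC and VM cells were 0.42 ± 0.09 and 0.86 ± 0.09.

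Slc6a18 had the largest change with Dox of all members in MYC and VM cells. It was at 31.9, 27.7, 39.6 and 42.5 units with Dox and 406, 413, 424 and 422 without it in the MYC cells, at 6.65, 7.66, 1.70 and 2.63 units with Dox and 126, 129, 151 and 162 without it in the VM cells and at 4.86, 4.16, 2.62 and 4.04 units with Dox and 11.4, 19, 8.16 and 10.8 without it in the VIM cells. All libraries with Dox were below all those without, and VM and VIM cells with Dox were near the floor. For Slc6a18 the log2 changes were -3.54 ± 0.11, -4.82 ± 0.30 and -1.40 ± 0.31. Cubn was at 38, 31.5, 23.8 and 23.6 units with Dox and 86.6, 109, 82.2 and 87.1 without it in the MYC cells, at 49.5, 52.8, 69.6 and 50.9 units with Dox and 219.6, 279, 195 and 239 without it in the VM cells and at 51.4, 52, 81.4 and 48.5 units with Dox and 144, 137, 118 and 126 without it in the VIM cells. It was lower with Dox in each line, with log2 changes of -1.63 ± 0.15, -2.05 ± 0.13 and -1.19 ± 0.15. Cyp4b1 was at 254, 244, 244 and 236 units with Dox and 509, 505, 529 and 487 without it in the MYC cells, at 156, 153, 162 and 171 units with Dox and 389, 371, 405 and 403 without it in the VM cells and at 72.9, 71.4, 72.8 and 83.2 units with Dox and 217, 156, 182 and 175 without it in the VIM cells. For Cyp4b1 the log2 changes were -1.05 ± 0.05, -1.28 ± 0.07 and -1.26 ± 0.11. After quantile normalization no member passed as lower in VIM cells.

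The other members that were lower with Dox passed in 1 or 2 lines. Mme was at 2142, 2048, 2067 and 2013 units with Dox and 4961, 5292, 5255 and 5063 without it in the MYC cells, at 2561, 2712, 2725 and 2749 units with Dox and 6716, 7117, 6367 and 6902 without it in the VM cells and at 1179, 1068, 1116 and 1193 units with Dox and 1440, 1574, 1571 and 1439 without it in the VIM cells. It fell in MYC and VM cells, with log2 changes of -1.31 ± 0.03 and -1.33 ± 0.04, and its change of -0.40 ± 0.04 in VIM cells was under the limit. Slc7a7 was at 21.3, 14.2, 13.6 and 17.6 units with Dox and 58.9, 62, 49.9 and 58.4 without it in the MYC cells and at 33.5, 34.7, 17.1 and 18.6 units with Dox and 65.1, 59.2, 53.8 and 73 without it in the VIM cells. It fell in both, with log2 changes of -1.74 ± 0.16 and -1.30 ± 0.21. Slc4a4 was at 147, 128, 122 and 140.5 units with Dox and 358, 357, 353 and 344 without it in the MYC cells, with a log2 change of -1.39 ± 0.06, and Slc2a2 at 38, 34.3, 27.6 and 28.8 units with Dox and 77.4, 81.6, 78.7 and 78.9 without it in the MYC cells, with a log2 change of -1.28 ± 0.12. In the VM line Aqp1 was at 238, 213, 256 and 244 units with Dox and 529, 501, 552 and 598 without it, with a log2 change of -1.19 ± 0.07. Ass1 was at 13.3, 20.4, 14.4 and 7.89 units with Dox and 22.9, 39.9, 27.9 and 25.1 without it in the VM cells, with a log2 change of -1.03 ± 0.26, which was lost without replicate 4 with Dox, at -0.80, or replicate 2 without it, at -0.87. Both of these calls were lost after TMM rescaling and after quantile normalization, as was that of Cyp4b1 in MYC cells. Slco1a1 was at 0, 0.851, 0.849 and 0 units with Dox and 4.41, 5.43, 5.43 and 3.80 without it in the VM cells, near the floor, with a log2 change of -2.07 ± 0.37.

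Whether the response to Dox itself differed between lines was tested over all 24 cell libraries, in which 31 members could be fitted. Relative to MYC cells, the response of VM cells was higher for 2 members and lower for 4 (background 3.2% and 5.33%). The response of VIM cells was higher for 5 and lower for 5 (4.46% and 4.34%). Relative to VM cells, that of VIM cells was higher for 3 and lower for none (3.88% and 2.54%). Some of these members were at or under the floor in all libraries of a line, so that the difference restates the response of the other line. This held for Anpep in VM and VIM cells and for Slco1a1 in MYC and VIM cells. Slc13a3 was at or under the floor in all libraries of both MYC and VIM cells, so its difference measures no response in either line. Slc5a1 was near the floor in VM cells. Without the members at or under the floor the counts were 2 higher and 2 lower, 5 higher and 3 lower, and 2 higher and none lower. In several settings that left out 1 library, calls were lost for Slc5a1 and Slc7a7 in VM less MYC cells. The same held for Slc7a8 in VIM less MYC cells. Slc6a18 differed in all comparisons: the response of VM cells less that of MYC cells was -1.28 ± 0.39 on the log2 scale, that of VIM less MYC cells 2.14 ± 0.39 and that of VIM less VM cells 3.42 ± 0.39. VM and VIM cells with Dox were near the floor for Slc6a18 and VIM cells without Dox held at most 19 units, so a fall in VIM cells as large as that in VM cells could not have been measured. Without replicate 3 of the VM cells with Dox the first difference was -0.98 and was not called. The response of Pdzk1 was smaller in VM and VIM cells than in MYC cells, with differences of -1.13 ± 0.15 and -1.07 ± 0.15, the second of which was lost without replicate 3 of the VIM cells without Dox, at -0.97. The rise of Gatm was smaller in VIM than in MYC cells, with a difference of -1.38 ± 0.12. For Ggt1 the differences were 0.18 ± 0.20, 0.37 ± 0.20 and 0.19 ± 0.20, and none passed.

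The lines also differed from each other on Dox. VM cells were higher than MYC cells for 3 of 23 members tested and lower for 7 (background 6.54% and 18.1%), VIM cells higher than MYC cells for 4 of 25 and lower for 11 (5.66% and 18.3%), and VIM cells higher than VM cells for 4 of 20 and lower for 6 (9.69% and 9.45%). After quantile normalization the first of these was 7 higher and 5 lower, and the second 8 and 9. Slc22a2 was at 20.7, 23.4, 24.4 and 19.9 units in the MYC cells, 0 in every library in the VM cells and 0 in every library in the VIM cells. The floor again stood for the cells at 0. Against the mean of MYC cells on the log2 scale, Slc22a2 was at least 6.61-fold lower in VM cells and at least 7.34-fold lower in VIM cells. Anpep was at 10.6, 12.5, 11.9 and 15.7 units in the MYC cells, 0 in every library in the VM cells and 0.694, 0, 0 and 0 in the VIM cells. Against the same kind of mean, Anpep was at least 3.90-fold lower in VM than in MYC cells. Ass1 was at 16.2, 17.9, 17.3 and 22.5 units in the MYC cells, 13.3, 20.4, 14.4 and 7.89 in the VM cells and 62.5, 62.4, 68.2 and 64.6 in the VIM cells. VIM cells were above both other lines, by 1.76 ± 0.14 and 2.19 ± 0.22, and the same held for Gatm, by 2.61 ± 0.05 and 2.0 ± 0.06. Slc7a8 was at 6.15, 3.26, 1.63 and 6.29 units in the MYC cells, 7.39, 9.36, 17 and 11.4 in the VM cells and 35.4, 45.8, 32.2 and 34.7 in the VIM cells. It was lowest in MYC cells and highest in VIM cells, with differences of 1.26 ± 0.35 for VM against MYC, which was lost without replicate 3 of the MYC cells, at 0.96, and 1.68 ± 0.24 for VIM against VM. There was 1 line of each genotype, so genotype and line cannot be told apart.

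Some members share reads or ground with other genes. Slco1a1, Acsm2, Akr1c21 and Cyp4b1 belong to families of close paralogues, between which the authors' estimates may divide reads. In mm9, Slc3a1 (chr17:85427687-85463583, + strand), Pdzk1 (chr3:96633207-96674849, + strand) and Dpp4 (chr2:62168130-62250288, - strand) overlap genes of the opposite strand. Whether the counting used strand is not given in the sources used here, so reads of such overlaps cannot be told apart.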

How the data were processed

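RNA was measured in 38 libraries. The deposited values are a signal: per the methods, the authors aligned paired reads of a stranded mRNA kit to mm9, estimated reads per gene with RSEM and scaled each library to its upper quartile. The submitters' processing notes also name Picard 1.64 and SAMtools. Low values were whole multiples of what 1 read was worth for 94.1 to 95.9% of values under 20 reads (within 0.02), which gave depths and the floor of 3 reads. These cover counting error only.

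Genes above 0 in at least 2 libraries (4 for cells) were fitted as log2(value + 1) with limma 3.58.1 in R 4.3.3, with an intensity trend, separately for each pair of groups, two-sided, with Benjamini-Hochberg adjustment over all genes tested. A call needed an adjusted p under 0.05 and a change above 1. The study compared groups of samples without pairing, and this was kept. The fits were run on simulated reads for VM tumours against kidney and for Dox in VM cells. They recovered 82.5% and 100% of genes changed by 2 on the log2 scale, and 100% of those changed by 4. All genes of a simulation had the same spread, so genes with a wider spread between tumours, and the other genotypes, are not covered. Separate cultures or animals are not labelled for every replicate, so p-values measure the spread between these libraries.

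The members and lists were chosen with earlier results of these data known. Within a role, values are printed for the called members with the largest and smallest change, those against the main direction and those whose groups overlap. Alternatives were other pseudocounts (0.1 and 10), a filter at a mean of 10 units, no filter, TMM and quantile scaling, shared fits, limma voom on estimated reads (chosen after seeing the data), KT or B6 kidneys only, the replicate block and leaving out each library. One gene of the lists is not reported here.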

Additional observations from a re-analysis of the deposited data

Results flagged for a closer look

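In 128 groups of 4 or 5 libraries, 15 held a library far from the rest by Dixon's ratio at the 95% level, where chance gives about 1 in 20. Of these, 11 were kidney 5, which is 1 library, so they are not separate results. The rest were in cells and may be no more than chance gives. It was high for Lrp2 (53957 units against 33898 to 37428 in the other kidneys), Slc34a3 (801 against 539 to 564), Slc22a8 (19287 against 7033 to 8261), Slc6a18 (21171 against 7658 to 10704), Slc3a1 (20937 against 15618 to 16236) and Dpp4 (2936 against 1656 to 2020). It was low for Slc22a6 (13122 against 28564 to 33809), Slc22a12 (23402 against 45898 to 51000), Slco1a1 (1073 against 25124 to 32011), Cyp2e1 (6278 against 58472 to 73171) and Cyp4b1 (5918 against 81134 to 97000). In the cells, Cubn was high in replicate 3 of the VM cells with Dox (69.6 units against 49.5 to 52.8) and in replicate 3 of the VIM cells with Dox (81.4 against 48.5 to 52). Cyp4b1 was high in replicate 4 of the VIM cells with Dox (83.2 against 71.4 to 72.9), and Dpp4 in replicate 4 of the VIM cells without it (56.4 against 32.3 to 34.6).

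The response to Dox differed between lines by a limma interaction term, given here as log2 differences. VM less MYC cells gave 1.37 for Slc5a1, -2.07 for Slco1a1, -1.28 for Slc6a18, 1.05 for Slc7a7, -1.13 for Pdzk1 and -2.06 for Anpep. VIM less MYC cells gave -1.03 for Slc13a3, 1.26 for Slc2a2, 1.92 for Slc5a8, 2.14 for Slc6a18, 1.88 for Slc6a19, -1.12 for Slc7a8, -1.07 for Pdzk1, -1.76 for Anpep, 1.10 for Dpp4 and -1.38 for Gatm. VIM less VM cells gave 1.61 for Slco1a1, 3.42 for Slc6a18 and 1.61 for Slc6a19. Leaving out single libraries lost the calls of Slc5a1 (1.07 to 1.31) and Slc7a7 (0.88 to 0.98) in VM less MYC cells in several settings. It also lost that of Slc7a8 (-1.11 to -0.93) in VIM less MYC cells. Slc13a3 and Slco1a1 were near the floor in all cells, and Anpep and Slc5a1 were so in VM and VIM cells. Slc6a18 was near the floor with Dox in VM and VIM cells. Between tumours, VIM less VM gave -2.38 for Slc2a2, 7.47 for Kap and 7.27 for Cyp2e1, where Kap and Cyp2e1 were at or near the floor in most VM tumours.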

How the results depend on the processing

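Called members kept their direction throughout: of 5158 repeats of a call under another setting, 4943 kept it, 215 lost it and 0 reversed. Counts of members called moved by more than 1.5 times as follows. A shared fit over kidney and tumours called 5 between VM and MYC tumours and 1 between VIM and MYC tumours (0 in the report), and 7 between VIM and VM tumours (3 in the report), where no filter gave 0 and limma voom 1. The share of all genes that the shared fit called is not given here. In the Dox response of VM against MYC cells, a pseudocount of 10 gave 1 and a filter at a mean of 10 units 3 (6 in the report), and in that of VIM against MYC cells a pseudocount of 10 gave 5 (10 in the report). The cause was not tested.

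Leaving out 1 library at a time gave 38 to 40, 37 to 40 and 38 to 42 calls in MYC, VM and VIM tumours against kidney, 0 to 2 between VIM and VM tumours, 26 to 37 in MYC cells against tumours, and 3 to 5 in the Dox response of VIM against VM cells. Signs changed for uncalled members alone. Quantile normalization gave 0.0092 for Amn in MYC and 0.13 in VM tumours. The B6 kidneys alone gave 0.49 for Mme in MYC, 0.0071 for Mme in VIM and -0.075 for Slc2a2 in VM tumours, and the KT kidneys alone 0.011 for Amn and -0.22 for Slc7a8 in VM tumours. Leaving out a library gave -0.84 to 0.013 for Amn and -1.04 to 0.32 for Mme in MYC tumours, and -0.11 to 0.37 for Slc2a2 and -0.61 to 0.39 for Slc7a8 in VM tumours.

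Replicate numbers of the VM and VIM cells did not pair the samples: the deviations of libraries with the same number correlated at -0.184 between VM cells with and without Dox, 0.0154 in VIM cells and 0.0580 between the lines. A replicate block called 3572 genes in VM cells, 3397 in VIM cells, 2696 between the lines and 893 in their Dox response, with 9, 7, 10 and 3 members. The counts of members were the same without the block, but those of genes were not. Without it, 624 genes were called higher and 409 lower in that Dox response. Depth limits the members near the floor, which are most of those in cells.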
